A study of Mus musculus with 224 samples.

Results

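The extracellular matrix is described here through 44 mouse genes, chosen by name as collagens, other structural matrix proteins, the enzymes that modify collagen, and the matrix proteases and their inhibitors. The deposited tables listed 39 of the 44 among 12611 genes in liver, all 44 among 13637 in soleus muscle and all 44 among 16542 in visceral adipose tissue. Col8a1, Tnc, Plod2, Lox and Timp1 have no liver values here. By role the members are the fibrillar collagen genes Col1a1, Col1a2, Col3a1, Col5a1, Col5a2 and Col5a3, the fibril-associated Col12a1 and Col14a1, and Col6a1, Col6a2, Col6a3 and Col8a1, whose products form microfibrils and short-chain networks. The basement membrane is represented by Col4a1, Col4a2, Col15a1, Col18a1, Lama2, Lama4, Lamb1, Lamc1, Nid1, Nid2 and Hspg2. Fn1, Fbn1, Eln, Sparc, Tnc and Postn encode glycoproteins and elastic fibre proteins, and Lum, Dcn and Bgn small leucine-rich proteoglycans. P4ha1, P4ha2, Plod1, Plod2, Lox, Loxl1 and Loxl2 encode collagen hydroxylases and cross-linking oxidases, and Mmp2, Mmp14, Timp1, Timp2 and Timp3 the proteases and their inhibitors.

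The study followed mRNA in 72 mice of 3 inbred strains, DBA/2J, BALB/cJ and C57BL/6J (C57Bl/6J and DBA/2JJ in the labels), kept on a high fat diet (HFD) or on regular chow (RC) for 5, 13 or 33 days. Each animal gave liver, soleus and visceral fat. With every combination of strain, diet and day there were 18 groups of 4 animals, 12 per strain and diet, 36 per diet, and 216 libraries. No group carries a transgene or a deletion according to the labels, and neither the age nor the sex of the animals is given in the sources used here.

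The matrix is secreted mainly by fibroblasts and related mesenchymal cells, and in liver by the stellate cells. Fibrillar collagen chains are hydroxylated and folded in the cell, secreted, and cross-linked outside it into fibrils. Basement membranes are thin sheets built on networks of type IV collagen and laminin, tied together by nidogens and perlecan, under endothelium and around each muscle fibre and fat cell. The matrix changes continually, and growth of adipose tissue or injury to liver and muscle is known to remodel it.

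Hepatocyte markers were high in all liver libraries (mean of 8 genes from 11.68 to 12.62 log2 CPM, the log2 of reads scaled to library size, on HFD and from 12.11 to 12.76 on RC). Myofibre markers were high in all soleus libraries (12.28 to 13.52 on HFD and 11.79 to 13.14 on RC). The mean of 7 slow fibre genes lay between 10.98 and 13.07 in soleus on HFD and between 5.11 and 12.33 on RC. The value of 5.11 belonged to 1 C57BL/6J RC day 33 library, of animal 1RC210, whose fast fibre genes averaged 13.84. In soleus of a C57BL/6J RC day 5 animal, 1RC226, hepatocyte genes averaged 8.26, the highest of the soleus libraries, and this library also had the highest mean over the 44 matrix genes, 6.86. Soleus of C57BL/6J RC day 33 animal 1RC235 had the lowest matrix mean, 4.58, and the lowest tendon mean, 2.06. In adipose tissue 2 BALB/cJ HFD libraries, of day 5 animal 3HF201 and day 33 animal 3HF208, had adipocyte means of 2.73 and 3.22. Adipocyte means were 8.31 or more in every other library. The matrix means of these 2 were 3.55 and 4.11. The 1 exocrine pancreas gene measured was at 9.72 and 6.40 in them, against at most 6.31 in the others. Whether other tissue was in these 2 samples was not tested. Test results that rest on these libraries are given with and without them, whereas correlations over libraries include them. All samples are pieces of whole tissue, so fewer cells of a type and less RNA per cell cannot be told apart.

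Measured per kilobase of exon, the members spanned a wide range in each tissue, and each tissue had its own order. In liver on RC the highest was Col18a1, the basement membrane collagen whose end fragment is endostatin, at 116, 160 and 195 CPM per kb (lowest, median and highest of 36 animals). Fn1, the fibronectin gene, which liver also secretes into plasma, followed with 82.7, 144 and 198 CPM per kb. Dcn, the collagen-binding proteoglycan decorin, came next with 8.81, 18.4 and 32.9 CPM per kb, below the range of both. At the other end the muscle laminin gene Lama2 had a median of 0.0816 CPM per kb on RC. Over both diets it had 3 to 86 reads per library, so its liver values are imprecise.

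In soleus Sparc, which encodes a collagen-binding protein of the matrix, was the highest member with 53.5, 150 and 313 CPM per kb on RC. Dcn followed with 22, 67.4 and 105 CPM per kb and Col1a1, which encodes the main chain of type I collagen, with 7.77, 63.4 and 270 CPM per kb. The ranges of Dcn and Col1a1 overlapped almost wholly, so the order of this pair is not settled. Adipose tissue had the same leaders in its first 2 places, Sparc with 199, 481 and 1.58e+03 CPM per kb and Dcn with 88.2, 201.4 and 547 CPM per kb, followed by Col4a1 with 38.1, 93.8 and 271 CPM per kb. The lowest members were Plod2, a lysyl hydroxylase gene, in soleus with a median of 1.09 CPM per kb and Col8a1 in adipose tissue with 1.27 CPM per kb. The rank order of member medians was closest between soleus and adipose tissue (Spearman rho 0.803 over 44 genes), and lower between liver and adipose tissue (0.584 over 39 genes) and between liver and soleus (0.386 over 39 genes). These are descriptions across genes, and the 3 tissue tables were normalized separately, so no level was tested between tissues.

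**Figure D1:**
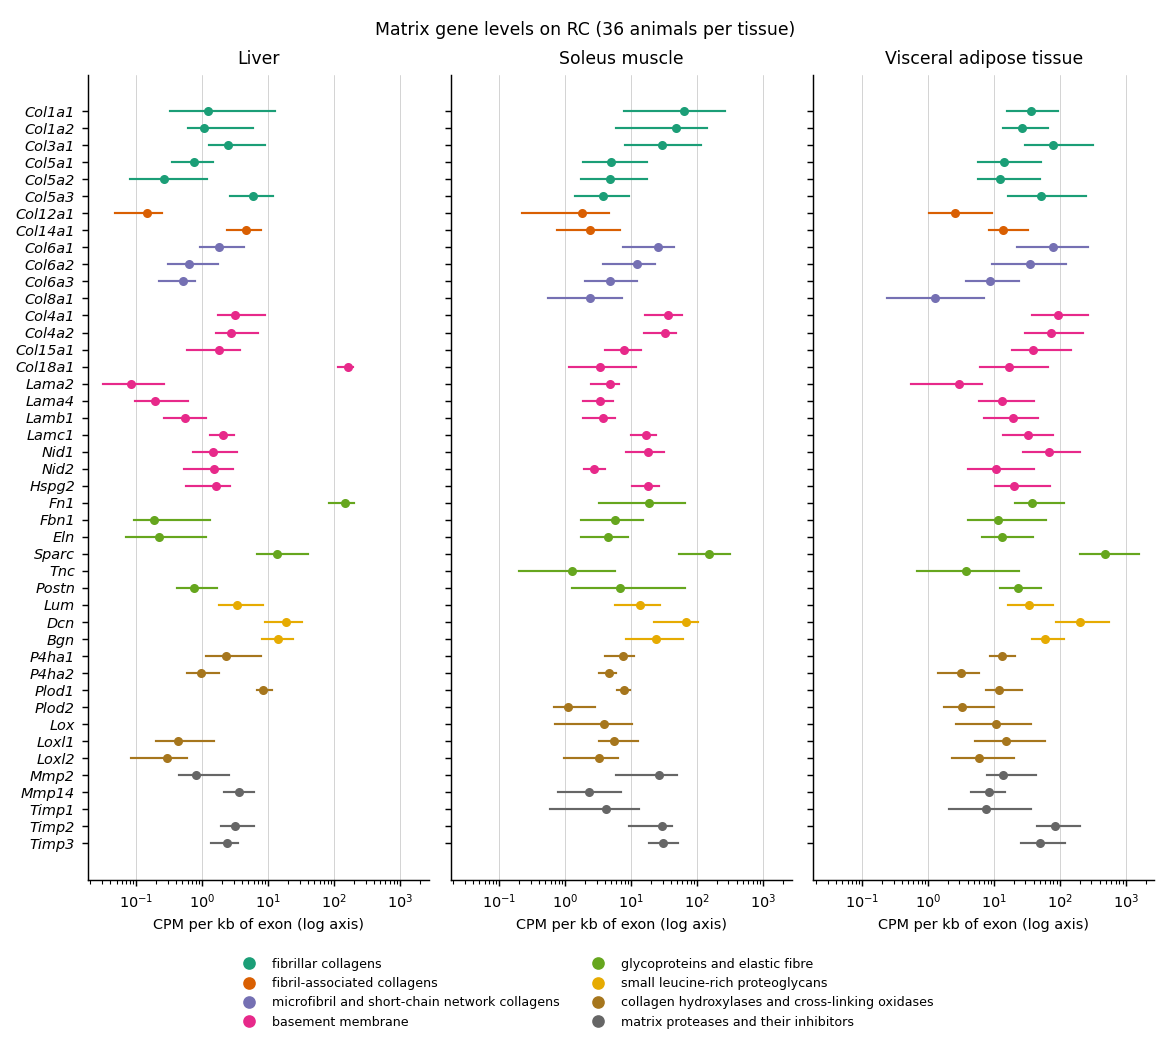
Matrix gene levels on RC in the 3 tissues, in CPM per kb of exon on a log axis. Points are medians and lines run from the lowest to the highest of 36 animals, coloured by role; Col18a1 and Fn1 stand far above the other members in liver, while Sparc and Dcn lead in soleus and adipose tissue.

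Col1a1 (ENSMUSG00000001506, GRCm38 chr11:94936224-94953042) served as the gene to which others were compared within each tissue, after group means were removed. Over the 72 animals its residuals followed those of Col1a2, the partner chain of type I collagen, with Pearson r of 0.945 in liver and 0.992 in soleus. In liver 19 of the other 38 members had r above 0.5, the median was 0.5, and Fn1, P4ha2 and Mmp14 were below 0. In soleus 37 of 43 and in adipose tissue 40 of 43 members were above 0.5, with medians of 0.737 and 0.884. The 5 genes outside the list most like Col1a1 were Vim, Adamts2, Gpx3, Ahnak and Cavin1 in liver (r 0.783 to 0.721). In soleus they were Ssc5d, Thbs4, Cilp2, Fmod and Tnmd (0.962 to 0.949), of which Tnmd encodes the tendon protein tenomodulin. In adipose tissue they were Pcolce, Fndc1, Adamts2, Col16a1 and Glt8d2 (0.975 to 0.950), and Pcolce encodes an enhancer of procollagen cleavage. Without the 2 animals farthest from the median, the first of each set kept r of 0.736, 0.947 and 0.967. These values describe libraries that share depth and tissue sampling and carry no test. In adipose tissue they include the 2 adipocyte-poor libraries, and the values of the members were not recomputed without them.

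Stretches of DNA are shown at 4 of the members that moved in soleus, the subject of the next paragraphs. Col3a1 and Col5a1 differ in promoter base composition, which was not computed for all members. Col4a1 and Col4a2 have overlapping starts. The sequences are of GRCm38.p6 from RefSeq, plus strand, 5′ to 3′, ending just before the annotated start for the first 2, with matches to the motifs searched in capitals (TATAAA in Col3a1, GGGCGG on either strand in Col5a1 and in the type IV overlap).
Col3a1, chr1:45311288-45311537: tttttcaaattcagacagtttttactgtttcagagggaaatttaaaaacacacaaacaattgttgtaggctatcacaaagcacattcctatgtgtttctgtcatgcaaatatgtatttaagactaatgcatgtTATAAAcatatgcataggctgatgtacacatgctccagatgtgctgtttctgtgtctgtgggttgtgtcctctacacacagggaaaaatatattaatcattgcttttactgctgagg
Col5a1, chr2:27886175-27886424: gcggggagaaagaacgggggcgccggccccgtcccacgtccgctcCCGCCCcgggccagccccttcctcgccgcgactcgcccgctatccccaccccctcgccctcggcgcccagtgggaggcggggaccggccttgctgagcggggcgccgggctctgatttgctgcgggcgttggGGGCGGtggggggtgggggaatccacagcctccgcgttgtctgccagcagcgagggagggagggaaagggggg
Col4a1 and Col4a2, overlap of their annotated starts, chr8:11312805-11312826: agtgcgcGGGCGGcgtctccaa
The Col3a1 window held 35.2% G and C and 1 TATA box, and the Col5a1 window 76.4% G and C and 2 GC boxes. Col4a1 runs to the left and Col4a2 to the right from overlapping starts, so the 22 bases shown, which hold 1 GC box, are the only ones that both annotated genes share. Of the 28 members with a window in the RefSeq table, 3 held TATAAA on either strand, against 12.4% of all 32851 windows of 250 bases. GGGCGG was found in 20 of the 28 and in 32.7% of all windows, CCAAT in 10 and in 33.8%, and TGANTCA, the AP-1 letters, in 1 and in 6.75%. A match describes letters only and is not a bound site.

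The question of how HFD changes matrix mRNA with time was clearest in soleus, where the differences between diets depended on the day. On day 5, 2 fibrillar collagen genes were lower on HFD than on RC, where 0.66% of all genes were called. On day 33, 8 members were higher, 6 of them basement membrane genes, and 1 was lower. There 17.8% of all genes were called, so the day 33 share of members was near the background. Diet effects were tested against day for every gene, and 7 of 44 members passed (adjusted p under 0.05, limma with Benjamini-Hochberg adjustment over all 13637 genes), against 0.99% of all genes. They were Col4a1 (adjusted p = 0.00114), Col4a2 (0.00274), Col3a1 (0.0120), Col15a1 (0.0163), Fbn1 (0.0356), Col6a3 (0.0370) and Col5a1 (0.0370). The count moved with single libraries, between 4 without C57BL/6J HFD day 5 animal 1HF250 and 21 without DBA/2J RC day 5 animal 2RC203, and 15 of the 72 fits that left out 1 library moved it by over 1.5 times. Col3a1, Col4a1, Col4a2 and Col15a1 were called in all 72 of these fits. Without animals 1RC226 and 1RC210, and with the animal number range as a covariate, those 4 were called, and with the mean of tendon genes as a covariate, added after the data were seen, Col3a1, Col4a1 and Col4a2.

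The strains did not contribute evenly to these values. Within strains, day 5 called 11 members in BALB/cJ, all lower on HFD (median −0.62 over 44 members, 3.7% of all genes called). In limma it called 0 in DBA/2J (2 under an unadjusted p of 0.05, median −0.12, 0.044% of genes) and 0 in C57BL/6J (5 under it, median −0.32, 0.843%). Day 33 called 2 members higher and 1 lower in BALB/cJ (3.79% of genes), 2 higher in DBA/2J (3.19%) and 1 higher in C57BL/6J (4.33%). On day 33 the fold changes of BALB/cJ were above 0 in 26 members and below it in 18, with a median of 0.03, against medians of 0.29 in DBA/2J and 0.425 in C57BL/6J. Whether strains differ in the effect of diet on a single day was not tested.

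Col3a1 (ENSMUSG00000026043, chr1:45311538-45349706), the gene for the fibrillar type III collagen of soft tissue, had 6.05, 8.08 and 9.03 log2 CPM in soleus on HFD day 5 (lowest, median and highest of 12), against 7.67, 8.79 and 10.13 on RC day 5. HFD values were the lower ones, with overlap between 7.67 and 9.03. On day 33 it had 7.12, 7.75 and 8.36 on HFD, against 6.31, 7.53 and 8.08 on RC. On day 5 Col3a1 fell by 0.96 ± 0.20 (log2 fold change with SE), which is 1.95-fold lower (adjusted p = 0.00856). The 4 BALB/cJ HFD animals of day 5 had 6.64, 6.70, 6.05 and 8.26, all below the 4 BALB/cJ RC animals with 9.06, 8.92, 8.47 and 8.35. In DBA/2J the HFD values were 8.05, 8.17, 8.39 and 9.03, against 9.11, 9.15, 9.22 and 7.93 on RC. In C57BL/6J they were 8.07, 8.08, 8.37 and 7.58, against 10.13, 7.67, 8.27 and 8.65 on RC. The groups overlapped in DBA/2J and C57BL/6J and not in BALB/cJ.

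Col5a1 (ENSMUSG00000026837, chr2:27886425-28039514), whose product helps start collagen fibrils, had 3.94, 5.43 and 5.97 log2 CPM on HFD day 5, against 4.85, 5.96 and 7.19 on RC day 5. It fell by 0.67 ± 0.17 (1.59-fold, adjusted p = 0.0369). Col3a1 and Col5a1 were the only members called on day 5, where 0.66% of all genes were called (0.33% lower). Of the 44 members, 42 had a fold change below 0, with a median of −0.38 against −0.002 over all genes tested. Col1a1 was as far apart in size, 5.85, 8.34 and 10.54 on HFD against 6.99, 9.69 and 10.79 on RC, a difference of −1.12 ± 0.34, and missed the threshold (adjusted p = 0.105). Col1a2 was alike, at −1.03 ± 0.32 (adjusted p = 0.110). The call of Col5a1 was lost without C57BL/6J RC animal 1RC226 (−0.53), whereas Col3a1 stayed called in every fit that left out a single library. Without DBA/2J RC animal 2RC203, which had low matrix and tendon genes, 13 members were called instead of 2, and without DBA/2J HFD animal 2HF203, 6.

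The tendon marker list moved in the same direction on day 5, with means of 3.32, 4.24 and 5.66 log2 CPM on HFD and 2.70, 5.00 and 5.72 on RC, and the 2 ranges overlapped. On day 33 tendon means were 4.04, 4.64 and 5.14 on HFD and 2.07, 4.77 and 5.06 on RC. Over all soleus libraries the residual r between the tendon mean and the mean of the 44 matrix genes was 0.861. With the tendon mean as a covariate, chosen after the data were seen, Col3a1 remained called on day 5 at −0.74 (adjusted p = 0.0118), and Col1a1 at −0.60 (0.00208) and Col1a2 at −0.53 (0.000888) were called as well, while Col5a1 was not.

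Type IV collagen, the network-forming collagen of basement membranes, was higher on HFD after day 5. Most members shared this direction, with fold changes above 0 in 41 of 44 on day 13 and 40 of 44 on day 33. Col4a1 (ENSMUSG00000031502, chr8:11198423-11312826, minus strand) had 8.31, 8.73 and 9.08 log2 CPM in soleus on HFD day 13, against 7.45, 8.17 and 8.77 on RC day 13. On day 33 it had 7.71, 8.28 and 8.74 on HFD, against 6.91, 7.61 and 8.10 on RC. HFD libraries were the higher ones on both days, with partial overlap. Col4a1 rose by 0.54 ± 0.11 on day 13 (adjusted p = 0.00144) and by 0.63 ± 0.11, or 1.55-fold, on day 33 (adjusted p = 9.8e-05). On day 5 its values were 7.53, 7.87 and 8.34 on HFD and 7.52, 8.13 and 8.62 on RC, a difference of −0.27 ± 0.11 that did not pass (adjusted p = 0.240).

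On day 33 the 4 DBA/2J HFD animals had Col4a1 at 8.60, 8.21, 8.26 and 7.99 log2 CPM, all above the DBA/2J RC animals at 7.36, 7.39, 7.77 and 7.45. The BALB/cJ HFD animals had 8.30, 8.59, 8.74 and 8.49, again all above the RC animals at 7.85, 8.07, 8.10 and 8.08. In C57BL/6J the HFD values 7.98, 7.75, 7.71 and 8.29 overlapped the RC values 6.95, 7.37, 6.91 and 8.05. Its neighbour Col4a2 (ENSMUSG00000031503, chr8:11312805-11449287, plus strand), which encodes the partner chain, had 7.31, 7.93 and 8.33 on HFD day 33, against 6.72, 7.34 and 7.76 on RC. Col4a2 rose by 0.44 ± 0.10 on day 13 (adjusted p = 0.00707) and by 0.58 ± 0.10 on day 33 (adjusted p = 0.000134). On day 13 this pair was called and no other member, where 3.51% of all genes were called (2.52% higher), and 41 of 44 fold changes were above 0.

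**Figure D2:**
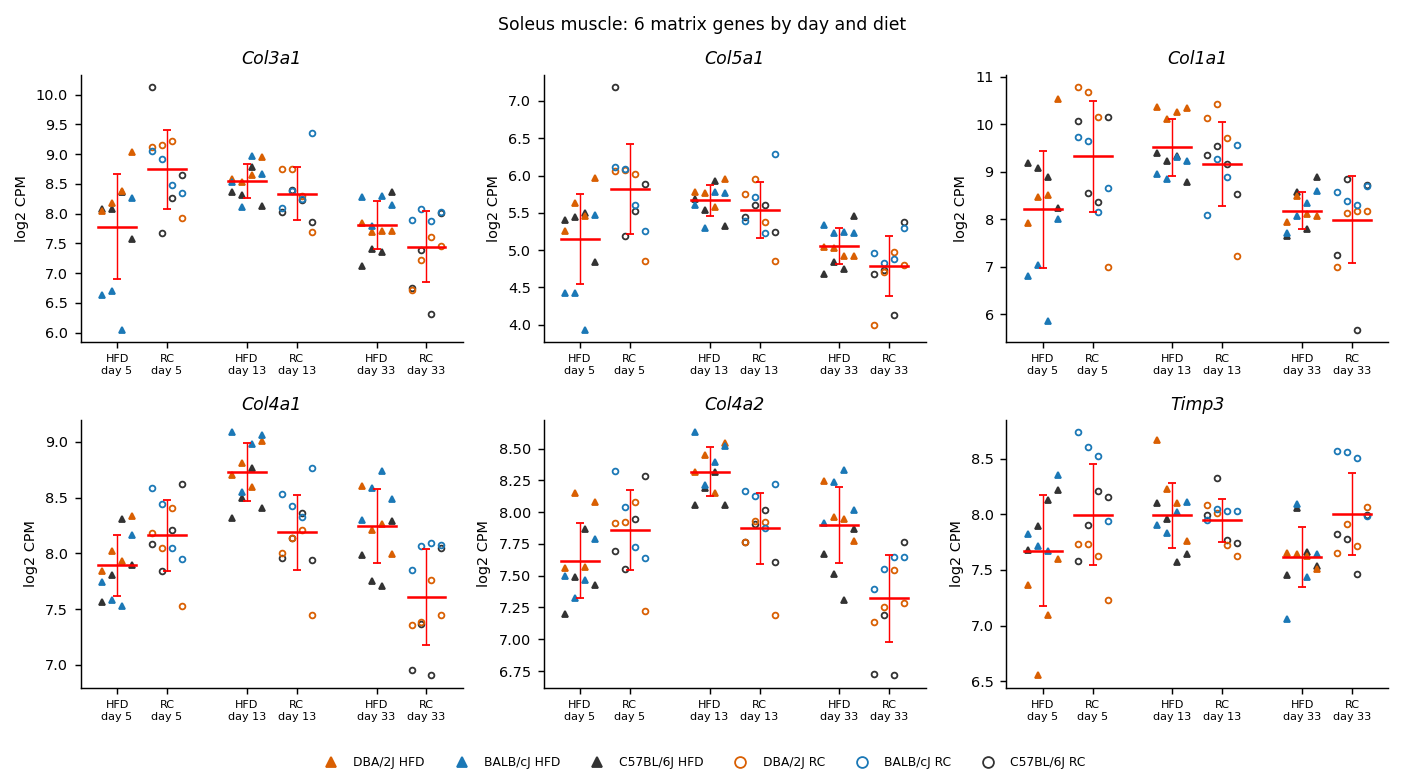
Levels of Col3a1, Col5a1, Col1a1, Col4a1, Col4a2 and Timp3 in soleus muscle, in log2 CPM, by day, with HFD left of RC. Each point is 1 animal coloured by strain, and red bars are the mean and SD of 12 animals. The means of the collagen genes shown are lower on HFD at day 5 and higher on HFD at days 13 and 33. Of these collagens, Col4a1 and Col4a2 alone were called on days 13 and 33.

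Day 33 had the widest change, with 8 members higher and 1 lower on HFD, against 17.8% of all genes called (8.96% higher), so the share of members called (9 of 44) was near that background. Of the 11 basement membrane genes 6 rose. Besides the type IV pair these were the laminin chains Lamb1 (0.42 ± 0.11, adjusted p = 0.00416) and Lama4 (0.31, 0.0323), the perlecan gene Hspg2 (0.41, 0.0129) and Col15a1 (0.49, 0.0128), a collagen that bridges basement membrane and fibrils. Lamb1 had 4.88, 5.33 and 5.61 log2 CPM on HFD and 4.21, 4.85 and 5.54 on RC. Hspg2 had 7.87, 8.10 and 8.49 on HFD and 7.23, 7.67 and 8.20 on RC. In both genes the highest RC animals lay inside the HFD range.

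Col5a3, a minor fibrillar chain (0.64 ± 0.20, adjusted p = 0.0179), and Fbn1, the microfibril gene fibrillin 1 (0.61, 0.0193), rose as well on day 33. Timp3 (ENSMUSG00000020044, chr10:86300372-86349506), an inhibitor of metalloproteases that binds to the matrix, was the 1 member that fell, with 7.06, 7.63 and 8.09 on HFD and 7.46, 7.95 and 8.57 on RC, a change of −0.39 ± 0.11 (adjusted p = 0.0116). Over all 44 members 40 fold changes were above 0 with a median of 0.30, against 0.002 over all genes tested. Without the 3 soleus libraries named above, 4 members were called, Col4a1 at 0.50, Col4a2 at 0.45, Lamb1 at 0.33 and Timp3 at −0.43. Leaving out animal 1RC235 uses the outcome, since it was picked for low matrix genes. Without C57BL/6J RC animal 1RC256, 14 members were called.

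Endothelial markers moved with these basement membrane genes on day 33. Their mean over 8 genes was 5.73, 5.94 and 6.16 log2 CPM on HFD and 5.17, 5.62 and 5.87 on RC, and 7 of the 8 genes rose, with a median of 0.39. Tie1 rose by 0.37 ± 0.07 (adjusted p = 0.000328), Kdr, a receptor for VEGF, by 0.65 ± 0.13 (0.000569) and Tek by 0.41 ± 0.09 (0.000898). On day 13, when Col4a1 and Col4a2 were already called, 1 of the 8 passed. Of 22 matrix receptor genes 5 rose on day 33, among them the integrin chains Itga1 (0.37, adjusted p = 0.00133), a collagen receptor subunit, and Itga6 (0.44, 0.00186), a laminin receptor subunit. Of 42 other matrix glycoproteins 4 rose, led by Lamb3 (0.54, 0.000347), a share near the 8.96% of all genes that were higher. Whether endothelial cells account for the basement membrane values was not tested.

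Pooled over days, 4 members passed in soleus, against 17.4% of all genes. Col4a1 rose by 0.30 ± 0.06 (1.23-fold, adjusted p = 0.00056), Col4a2 by 0.26 ± 0.06 (0.00166) and Lamb1 by 0.19 ± 0.06 (0.0225), and Timp3 fell by 0.22 ± 0.06 (0.0115). By strain, DBA/2J had 5 members higher on HFD, against 8.73% of genes called (5.28% higher): Col4a1 (0.53), Col4a2 (0.46), Lama4 (0.40), Lamb1 (0.38) and P4ha2 (0.21). BALB/cJ had 2 lower, Timp3 (−0.49, adjusted p = 0.00304) and the proteoglycan gene Lum (−0.51, 0.0361), against 11.5% of genes (5.26% lower). C57BL/6J had 0 in limma, with 1 member under an unadjusted p of 0.05, against 5.75% of genes. The strains were not shown to differ, since the test of diet by strain called 0 members in limma (8 under an unadjusted p of 0.05), against 9.83% of genes. Without BALB/cJ HFD day 5 animal 3HF224, 5 members were called in BALB/cJ.

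**Figure D3:**
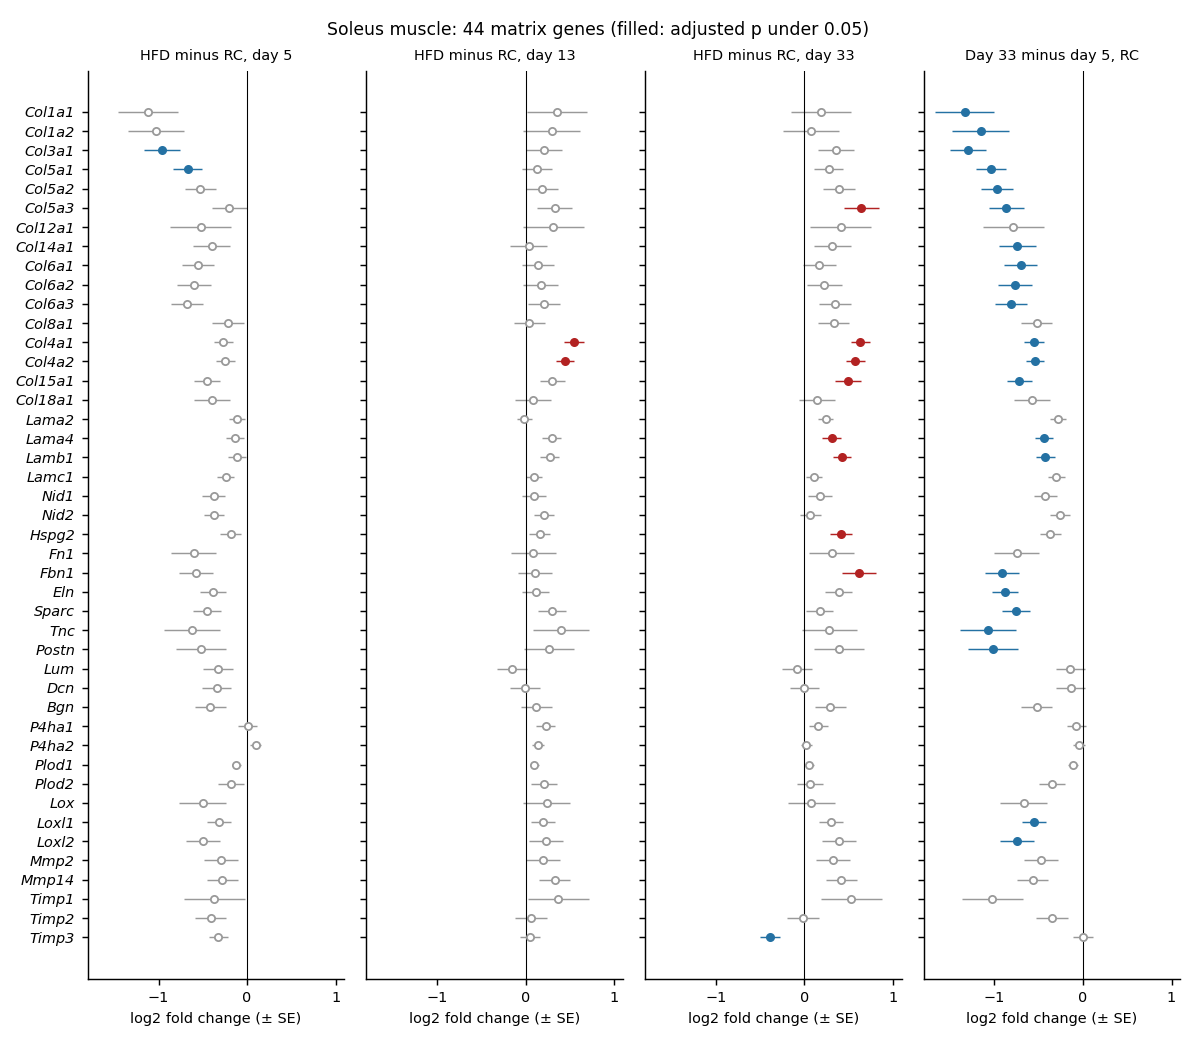
Log2 fold changes with SE of the 44 matrix genes in soleus muscle, HFD minus RC on days 5, 13 and 33, and day 33 minus day 5 on RC. Filled points passed an adjusted p of 0.05; blue is lower and red higher; the first and last panels lie mostly left of 0, and the panels for days 13 and 33 mostly right of it.

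Within chow-fed animals matrix genes in soleus also differed between days, in comparisons of different mice. On RC 22 of 44 members were lower on day 33 than on day 5 and 0 were higher, against 2.85% of all genes called (1.58% lower). The RC animals of days 5 and 33 are also those of the diet comparisons on these days. They enter the test of diet by day as well, so these results are not independent. All 6 fibrillar collagen genes fell, with a median of −1.10. Col3a1 had 6.31, 7.53 and 8.08 log2 CPM on RC day 33, against 7.67, 8.79 and 10.13 on day 5, and fell by 1.30 ± 0.20 (2.46-fold, adjusted p = 6.18e-05). The median of day 33 lay below the lowest animal of day 5. Col1a1 fell by 1.34 ± 0.34 (2.53-fold, adjusted p = 0.0198), with 5.67, 8.24 and 8.84 on day 33 against 6.99, 9.69 and 10.79 on day 5.

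Other structural genes moved with them. Eln, the elastin gene, had 3.79, 4.79 and 5.21 log2 CPM on RC day 33 and 5.00, 5.74 and 6.15 on RC day 5, and fell by 0.88 ± 0.15 (adjusted p = 0.000235). Sparc had 7.66, 8.86 and 9.16 on day 33 and 8.56, 9.68 and 10.21 on day 5, and fell by 0.76 (adjusted p = 0.00402). No animal of day 33 reached the median of day 5 in either gene. Of the glycoprotein and elastic fibre genes 5 of 6 fell, of the microfibril and short-chain collagens 3 of 4, of the basement membrane genes 5 of 11, of the hydroxylases and oxidases 2 of 7 and of the fibril-associated collagens 1 of 2. None of the 3 small leucine-rich proteoglycans and none of the 5 proteases and inhibitors passed.

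Of 15 genes for collagen folding and secretion outside the members, 4 fell in the same comparison. They were Adamts2, a procollagen N-proteinase (−0.71 ± 0.14, adjusted p = 0.00217), Serpinh1, the collagen chaperone HSP47 (−0.57, 0.00521), Fkbp10 (−0.53, 0.0222) and Adamts14 (−0.54, 0.0493). Of 20 other collagens 4 fell, led by Col6a6 (−0.75, 0.0198), and of 42 other matrix glycoproteins 6, led by the microfibril gene Mfap5 (−0.70, 0.00589). These lists rose in 0 genes.

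The size of this fall rested in part on single libraries. Without C57BL/6J RC day 5 animal 1RC226 the count was 13, without DBA/2J RC day 5 animal 2RC203 it was 36, and without animals 1RC226 and 1RC210 it was 11. Without animal 1RC235 as well, which uses the outcome, it was 4, with Col3a1 at −0.94 (adjusted p = 0.00487), Col5a1 at −0.79 (0.00439), Eln at −0.81 (0.00487) and Col4a2 at −0.43 (0.0400). Within strains, 17 members were lower in C57BL/6J (median −0.95, 2.99% of genes called), 2 in DBA/2J (−0.68, 0.777%) and 0 in BALB/cJ (−0.19, 7 under an unadjusted p of 0.05 in limma, 0.0293%); these differences between strains were not tested. On HFD the same interval called 1 member, Col4a1, which rose by 0.35 ± 0.11 (adjusted p = 0.0294), against 12.5% of all genes, and that call was lost in 5 fits that left out a single library. The member median on HFD was 0.05. Within strains on HFD, 4 members were higher in BALB/cJ (median 0.60, 2.39% of genes called) and 2 lower in DBA/2J (−0.19, 13.7%). C57BL/6J had 0 on HFD in limma (−0.18, 0 under an unadjusted p of 0.05, 0.792%), and these strain differences were not tested.

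Strains also differed in soleus on RC, and the share of members called was below that of all genes in each pair. BALB/cJ against C57BL/6J had 13 members higher and 3 lower of 44 (44.5% of all genes called, 21.2% higher). Lum (ENSMUSG00000036446, chr10:97565128-97572703), which encodes lumican, a regulator of fibril width, had 5.14, 5.72 and 6.08 log2 CPM in BALB/cJ, 4.20, 4.96 and 5.45 in DBA/2J and 3.82, 4.48 and 6.04 in C57BL/6J. BALB/cJ was 2.09-fold higher than C57BL/6J (1.07 ± 0.17, adjusted p = 3.4e-07), with overlap through the highest C57BL/6J animals. Nid1, the nidogen 1 gene, was higher by 0.58 (0.000337) and Dcn by 0.63 (0.00151), while Timp1, an inhibitor of metalloproteases, differed by −1.14 (0.00533) with ranges that overlapped, −0.36, 0.90 and 3.53 in BALB/cJ and −0.92, 2.76 and 3.56 in C57BL/6J.

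BALB/cJ against DBA/2J had 11 members higher in soleus (40.4% of genes called, 19.8% higher), led by Lama2, the laminin chain of the muscle basement membrane, with 6.10, 6.46 and 6.77 log2 CPM in BALB/cJ and 5.55, 5.92 and 6.42 in DBA/2J (0.56 ± 0.09, adjusted p = 6.7e-07). DBA/2J against C57BL/6J had 6 lower (37% of genes called, 19.4% lower), among them Lama2 (−0.34, 0.00134) and Mmp14, a membrane-bound collagenase (−0.55, 0.00979). Macrophage markers were also higher in BALB/cJ than in both other strains in 6 of 7 genes, led by Lyz2 (1.05 ± 0.20 over DBA/2J, adjusted p = 3.28e-05), and 5 of 9 fibroblast markers were higher and 1 lower than in C57BL/6J; their part in the matrix values was not tested.

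In liver HFD changed few members, of which Timp3 also fell in soleus of the same animals. Over all strains and days 2 rose and 4 fell of 39, against 21.2% of all genes called, so the members' share (15.4%) was no larger than the background. Col12a1 (ENSMUSG00000032332, chr9:79598991-79718831), which encodes a collagen on the surface of fibrils, had 0.50, 1.60 and 2.63 log2 CPM on HFD (36 animals), against −0.49, 1.16 and 1.88 on RC, and rose by 0.53 ± 0.10 (adjusted p = 2.75e-05). P4ha1 (ENSMUSG00000019916, chr10:59323296-59373304), which encodes the catalytic chain of prolyl 4-hydroxylase, had 2.09, 3.72 and 5.54 on HFD and 2.23, 3.25 and 4.99 on RC, and rose by 0.33 ± 0.11 (0.0229). The groups overlapped widely in both genes.

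The members that fell in liver were Timp3 (−0.26 ± 0.07, adjusted p = 0.00647), Lum (−0.32 ± 0.10, 0.0124), the laminin chain Lamc1 (−0.16, 0.0273) and Hspg2 (−0.18, 0.0349). Timp3 had 2.98, 4.03 and 4.80 log2 CPM on HFD and 3.45, 4.26 and 4.84 on RC, and Lum 1.68, 2.73 and 4.76 on HFD and 2.14, 3.02 and 4.35 on RC. In both the HFD median was the lower one, with broad overlap. Col1a1 did not pass (−0.12 ± 0.17, adjusted p = 0.671). Of 14 folding and secretion genes outside the members 2 fell, Ppib (−0.16, 0.0216) and P4hb (−0.12, 0.0253), the second of which encodes the partner subunit of prolyl 4-hydroxylase. Of 32 other matrix glycoproteins 4 fell and 1 rose, led by Podn (−0.35, 0.00054). Both shares were below the 21.2% of all genes called.

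The rise of Col12a1 and P4ha1 depended on strain. In DBA/2J, P4ha1 had 3.09, 3.79 and 4.84 log2 CPM on HFD, against 2.35, 2.62 and 3.39 on RC, and rose by 1.02 ± 0.19 (2.03-fold, adjusted p = 4.31e-05). The ranges overlapped between 3.09 and 3.39. On day 13 the 4 DBA/2J HFD livers had 3.85, 3.84, 4.84 and 4.17, and the 4 RC livers 2.62, 2.62, 2.62 and 2.59, so the groups were fully apart. In BALB/cJ P4ha1 was 2.09, 2.90 and 3.82 on HFD and 2.23, 3.03 and 4.42 on RC (−0.02, adjusted p = 0.958), and in C57BL/6J 3.27, 4.17 and 5.54 on HFD and 3.64, 4.29 and 4.99 on RC (−0.02, 0.988). The test of diet by strain passed for P4ha1 (adjusted p = 0.00376).

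Col12a1 in DBA/2J liver had 0.52, 1.49 and 2.63 log2 CPM on HFD, against −0.49, 0.37 and 1.88 on RC, and rose by 1.03 ± 0.17 (2.05-fold, adjusted p = 3.73e-06). In BALB/cJ it was 0.50, 1.58 and 2.09 on HFD and 0.17, 1.22 and 1.42 on RC (0.27 ± 0.17, adjusted p = 0.289), and in C57BL/6J 0.98, 1.89 and 2.45 on HFD and 0.91, 1.42 and 1.74 on RC (0.30 ± 0.17, 0.458). The strains differed by the test of diet by strain (adjusted p = 0.0218). DBA/2J had the lowest median of the 3 strains on either diet. Reads behind Col12a1 in liver were few, 18 to 171 per library over both diets. These 2 were the members called by strain, against 15.7% of all genes, and without BALB/cJ HFD day 5 animal 3HF224 there were 10.

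**Figure D4:**
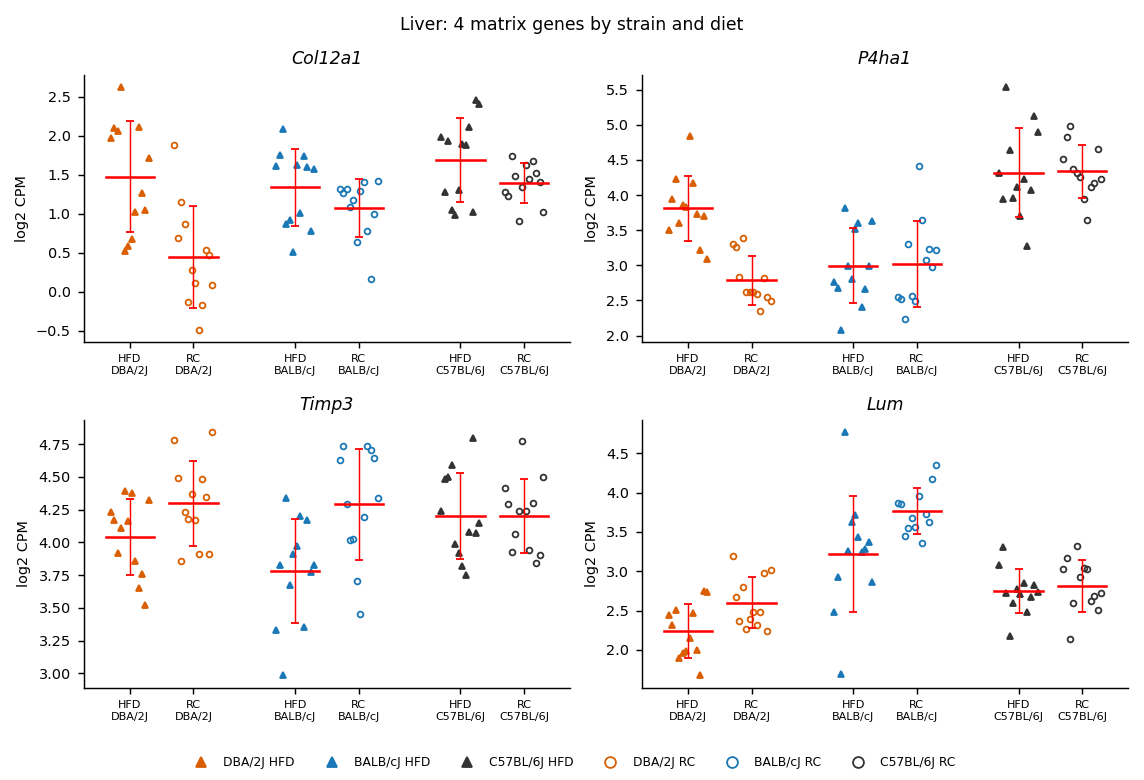
Levels of Col12a1, P4ha1, Timp3 and Lum in liver, in log2 CPM, by strain, with HFD left of RC. Points are single animals and red bars the mean and SD of 12. Col12a1 and P4ha1 are raised on HFD in DBA/2J, where RC values are low. Timp3 and Lum have lower means on HFD in BALB/cJ, where they were called, and in DBA/2J, where they were not. The test of diet by strain did not call Timp3 or Lum.

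DBA/2J called 3 members in liver, with Col18a1 beside the pair above (−0.20 ± 0.08, adjusted p = 0.0442), against 21.6% of all genes. BALB/cJ called 5, all lower, against 14.8% of genes (6.91% lower): Timp3 (−0.51 ± 0.12, adjusted p = 0.00319), Lamc1 (−0.30, 0.0212), Lum (−0.54 ± 0.17, 0.0222), the proteoglycan gene Bgn (−0.32, 0.0288) and Timp2 (−0.36, 0.0350). Timp3 had 2.98, 3.83 and 4.34 log2 CPM on HFD and 3.45, 4.32 and 4.74 on RC in BALB/cJ, and Lum 1.69, 3.27 and 4.76 on HFD and 3.35, 3.71 and 4.35 on RC. Both overlapped, Lum through HFD animals above and below the whole RC range. C57BL/6J called 0 in limma (0 under an unadjusted p of 0.05), against 2.31% of all genes. The BALB/cJ count ran from 2 to 10 when single libraries were left out, and was 10 without HFD day 5 animal 3HF224.

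By day, liver called 2 members on day 5, both lower (6.48% of genes, 3.28% lower). Loxl1, a lysyl oxidase gene needed for elastic fibres, had −2.93, 0.26 and 1.01 log2 CPM on HFD and 0.15, 0.78 and 2.31 on RC (−0.84 ± 0.23, adjusted p = 0.0163), and lost its call without BALB/cJ HFD animal 3HF203 (−0.60). Over both diets Loxl1 had 3 to 116 reads per liver library, so its values are imprecise. Col18a1 was the other (−0.23, 0.0492). Day 13 called 0 in limma (4 under an unadjusted p of 0.05), against 2.05% of genes. Day 33 called 2, against 16.3%: Col12a1, with 0.78, 1.65 and 2.45 on HFD and −0.17, 0.89 and 1.68 on RC (0.82 ± 0.17, 0.000274), and Timp3 (−0.42 ± 0.12, 0.0128). Most Col12a1 values on HFD lay above the RC median. The test of diet by day called 0 in limma (3 under an unadjusted p of 0.05), against 3.35%. From day 5 to day 33 liver called 0 on RC in limma (11 under an unadjusted p of 0.05, 0.666% of genes) and 1 on HFD (5.48% of genes), Col5a3 (0.74 ± 0.18, 0.00819), with 3.93, 5.24 and 5.99 on day 33 and 2.43, 5.00 and 5.52 on day 5.

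Between strains, most matrix genes that differed in liver on RC were higher in BALB/cJ. Against C57BL/6J 17 members were higher and 4 lower of 39, where 46.8% of all genes were called (22.9% higher), with a median of 0.34 over members and −0.01 over all genes. Against DBA/2J 18 were higher and 3 lower, where 42.1% were called (20.6% higher). Both comparisons share the BALB/cJ animals. Col4a1 had 4.66, 5.13 and 6.05 log2 CPM in BALB/cJ, 3.69, 4.24 and 5.47 in DBA/2J and 3.67, 4.38 and 4.93 in C57BL/6J, and BALB/cJ was higher by 0.94 than DBA/2J (adjusted p = 2.48e-06) and by 0.84 ± 0.16 than C57BL/6J (1.51e-05). Every BALB/cJ liver lay above the medians of the other strains, and the ranges overlapped.

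Lum in liver had 3.35, 3.71 and 4.35 log2 CPM in BALB/cJ on RC, 2.24, 2.48 and 3.19 in DBA/2J and 2.14, 2.82 and 3.33 in C57BL/6J. BALB/cJ did not overlap either of the others (1.16 ± 0.17 over DBA/2J, adjusted p = 6.27e-08, and 0.95 ± 0.17 over C57BL/6J, 4.5e-06). Lama2 was 3.00-fold higher in BALB/cJ than in DBA/2J (1.59 ± 0.26, 7.16e-07), and Col1a1 was higher by 1.02 ± 0.29 (0.0037). Plod1, a lysyl hydroxylase gene, differed by 0.38 (1.89e-07), with 5.91, 6.10 and 6.26 in BALB/cJ and 5.58, 5.69 and 5.91 in DBA/2J. Fibroblast markers were higher in BALB/cJ than in C57BL/6J in 4 of 8 genes, led by Pdgfra (1.04 ± 0.13, 3.56e-10), and their mean was 2.75, 3.25 and 3.47 in BALB/cJ, 1.96, 2.58 and 3.49 in DBA/2J and 1.95, 2.74 and 3.06 in C57BL/6J. Their part in the matrix values was not tested.

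DBA/2J against C57BL/6J livers on RC had 6 members higher and 8 lower (48.1% of genes called). Hspg2 was higher, with 4.22, 4.57 and 5.12 log2 CPM in DBA/2J and 3.03, 3.94 and 4.24 in C57BL/6J (0.79 ± 0.11, adjusted p = 1.35e-08), and the ranges met at the edge. Col12a1 was lower (−0.95 ± 0.17, 2.8e-06). P4ha1 was the lowest member in fold, with 2.35, 2.62 and 3.39 in DBA/2J, 2.23, 3.03 and 4.42 in BALB/cJ and 3.64, 4.29 and 4.99 in C57BL/6J. No DBA/2J liver on RC reached the lowest C57BL/6J liver, a 2.92-fold difference (−1.55 ± 0.19, 3.81e-10), and BALB/cJ differed from C57BL/6J by −1.32 ± 0.19 (3.26e-08).

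P4ha1 was lower than in C57BL/6J in the other tissues too. In soleus on RC it had 4.25, 4.75 and 5.05 log2 CPM in DBA/2J, 4.07, 4.66 and 5.16 in BALB/cJ and 4.81, 5.05 and 5.50 in C57BL/6J, with differences of −0.40 ± 0.11 (adjusted p = 0.00207) and −0.38 (0.00325). In adipose tissue it had 5.25, 5.67 and 6.11 in DBA/2J, 5.17, 5.54 and 6.32 in BALB/cJ and 5.52, 6.11 and 6.41 in C57BL/6J, with differences of −0.39 (0.0353) and −0.48 ± 0.15 (0.0276). The same animals gave the 3 tissues and the C57BL/6J animals serve both comparisons. The GRCm38 reference, named in the submitters' processing notes for all samples, is built from C57BL/6J mice.

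In visceral adipose tissue P4ha1 was also the 1 member called for diet, against 2.67% of all genes. It had 5.16, 6.17 and 7.03 log2 CPM on HFD, against 5.17, 5.76 and 6.41 on RC, with the higher median on HFD and wide overlap, and rose by 0.42 ± 0.09 (1.33-fold, adjusted p = 0.00364). Within strains the differences were 0.60 ± 0.15 in DBA/2J (adjusted p = 0.0543), 0.36 in BALB/cJ (0.192) and 0.28 in C57BL/6J (0.825), none called. No other member was called within a strain, on a day, by strain, by day or over time in limma, where 0% to 1.51% of all genes were called. At an unadjusted p under 0.05 there were 35 of 44 members in BALB/cJ, 6 in C57BL/6J and 1 in DBA/2J. The median member difference was −0.82 in BALB/cJ, 0.39 in C57BL/6J and −0.002 in DBA/2J. Without the 2 adipocyte-poor libraries, 1 BALB/cJ member instead of 35 was under an unadjusted p of 0.05, 0 were called and the median was −0.39. The tests of diet by strain (0.0846% of genes called) had 19 members under an unadjusted p of 0.05 and those of diet by day (0%) had 9. On days 5, 13 and 33 there were 5, 2 and 6 such members. Over time there were 0 on RC (0.0181% of genes called) and 1 on HFD (0.0484%).

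A set of lymphocyte genes split the adipose libraries, and matrix genes moved with it. The mean of 11 B and T lymphocyte genes lay between −0.17 and 2.09 log2 CPM in 30 libraries. In 40 others it lay between 6.07 and 8.20. The 2 adipocyte-poor BALB/cJ HFD libraries were kept out of both sets for their adipocyte genes. Their lymphocyte means were 3.08 in 3HF201, between the sets, and 0.54 in 3HF208, within the low range. The low set held 8 HFD and 9 RC libraries of DBA/2J, 3 and 4 of BALB/cJ and 4 and 2 of C57BL/6J, and the high set 4 and 3 of DBA/2J, 7 and 8 of BALB/cJ and 8 and 10 of C57BL/6J. The mean of the 44 matrix genes was 7.25, 8.01 and 8.50 in the low set and 5.87, 6.70 and 7.58 in the high set, and adipocyte genes averaged 10, 10.86 and 11.36 in the low set and 8.31, 9.21 and 10.46 in the high set. These sets were made from the data and are not groups of the study. Over 72 libraries the residual r with the matrix mean was −0.592 for lymphocyte, 0.896 for adipocyte and 0.958 for fibroblast genes. These values include the 2 adipocyte-poor libraries, which were low in both adipocyte and matrix genes, and were not recomputed without them.

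**Figure D5:**
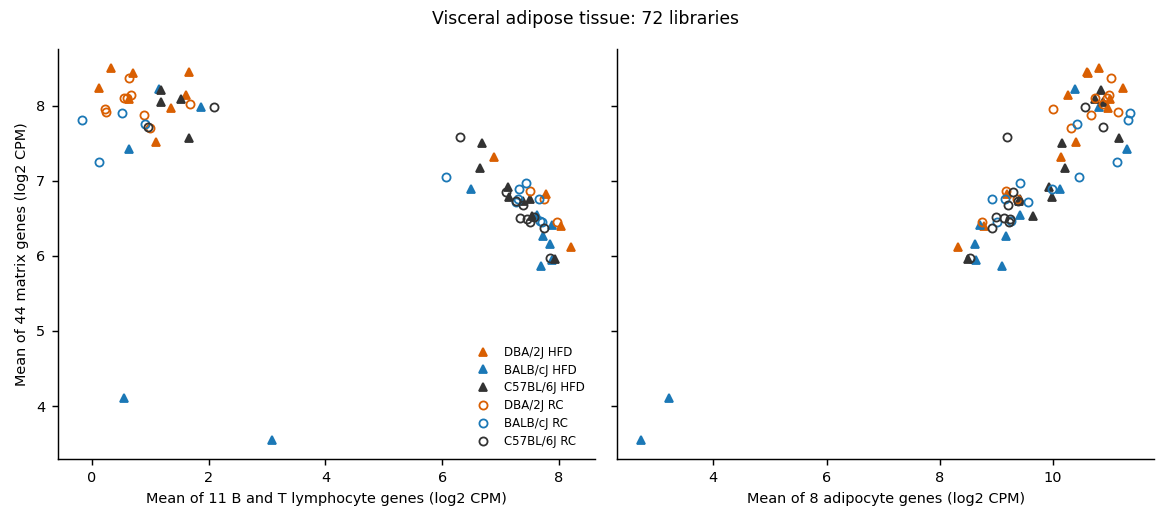
Mean level of the 44 matrix genes against the mean of 11 lymphocyte genes (left) and of 8 adipocyte genes (right) in 72 visceral adipose libraries, in log2 CPM. Filled triangles are HFD and open circles RC, coloured by strain. The lymphocyte-low set had matrix means from 7.25 to 8.50 and the lymphocyte-high set from 5.87 to 7.58. The 2 BALB/cJ HFD libraries low in adipocyte genes, placed in neither set, lay at 3.55 and 4.11.

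DBA/2J against C57BL/6J adipose tissue on RC had 24 members higher and 1 lower of 44, against 41.7% of all genes called (21.2% higher), with a median of 0.81 over members and 0.05 over all genes. All 11 lymphocyte genes were lower in DBA/2J in the same comparison (median −3.92), led by Ms4a1 (−4.37 ± 1.28, adjusted p = 0.00698), the B cell gene for CD20. Adipocyte genes had a median of 1.10 and included Lep, the leptin gene (2.04 ± 0.64, 0.0104). All 4 microfibril and short-chain collagens were higher, as were 4 of 6 fibrillar collagens, 6 of 11 basement membrane genes and 3 of 5 proteases and inhibitors.

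Col8a1 (ENSMUSG00000068196, chr16:57624258-57754737), the gene for a short-chain collagen known from vessel walls, had 2.85, 5.26 and 5.80 log2 CPM in DBA/2J, 2.10, 3.12 and 4.89 in BALB/cJ and 0.92, 1.97 and 4.08 in C57BL/6J. DBA/2J was 5.54-fold higher than C57BL/6J (2.47 ± 0.41, adjusted p = 5.04e-06), with overlap through the lowest DBA/2J animals. Mmp2 (ENSMUSG00000031740, chr8:92827291-92853420), which encodes gelatinase A, had 5.36, 6.92 and 7.21 in DBA/2J, 5.04, 5.61 and 6.66 in BALB/cJ and 4.71, 4.87 and 5.56 in C57BL/6J, a 3.10-fold difference between DBA/2J and C57BL/6J (1.63 ± 0.32, 0.00011). Timp1 (ENSMUSG00000001131, chrX:20870166-20874735) had 2.60, 3.95 and 5.02 in DBA/2J, 1.83, 2.20 and 3.63 in BALB/cJ and 0.89, 2.15 and 3.64 in C57BL/6J (1.75 ± 0.36, 0.000205). In each of these genes DBA/2J had the highest median and C57BL/6J the lowest, and BALB/cJ and C57BL/6J did not differ past the threshold.

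Further members higher in DBA/2J were Col5a3 (2.07 ± 0.52, 4.20-fold, adjusted p = 0.00193), Fbn1 (1.58, 0.00344), Col15a1 (1.38, 0.00403), the type VI collagen gene Col6a1 (1.42, 0.00438) and Sparc (1.23, 0.00533). Tnc, the tenascin C gene, had the most negative value, −1.07, and did not pass (0.122). BALB/cJ against DBA/2J had 8 members lower (16.2% of genes called, 8.92% lower), led by Timp1 (−1.37, 0.00566) and Col8a1 (−1.43, 0.0120), and BALB/cJ against C57BL/6J had 1, P4ha1 (11.2% of genes called).

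The DBA/2J excess was smaller once lymphocyte genes were taken into account, in settings added or read after the sets were seen. Within the low set 3 members were called between DBA/2J and C57BL/6J and the member median was −0.002. Within the high set 5 were called and the median was 0.05. The fits within a set used means of strain and diet without day, so they differ from the main fit in that as well. With the lymphocyte mean as a covariate 6 were called. The shares of all genes called in these 3 fits are not given here. Mmp2 was called in all 3, at 1.39 ± 0.28 (adjusted p = 0.00118) in the low set, 0.79 (0.0389) in the high set and 1.29 with the covariate. The strain pair is compared on RC, where the low set held 9 DBA/2J and 2 C57BL/6J libraries and the high set 3 and 10. On RC Mmp2 was 6.40, 6.99 and 7.21 log2 CPM in low-set DBA/2J libraries, against 5.55 and 5.56 in C57BL/6J. In high-set libraries on RC it was 5.36, 5.79 and 5.88 for DBA/2J, against 4.71, 4.79 and 5.24 for C57BL/6J, so the low-set fold rests on 2 C57BL/6J animals. With both diets, in the low set Mmp2 was 6.40, 7.07 and 8.12 log2 CPM in 17 DBA/2J libraries of both diets and 5.35, 5.58 and 6.07 in 6 C57BL/6J libraries, with no overlap, and in the high set 5.27, 5.79 and 6.63 in 7 and 4.46, 4.88 and 5.76 in 18. Col8a1 was called in the low set (1.62 ± 0.38, 0.00458) and with the covariate (1.49), and not in the high set. Nid2, the nidogen 2 gene, was lower in DBA/2J in all 3 (−1.20 in the low set, −1.07 in the high set and −1.04 with the covariate). Leaving out C57BL/6J RC animal 1RC210 or DBA/2J RC day 5 animal 2RC200 brought the count of 25 to 16 or 14.

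The BALB/cJ diet difference in adipose tissue depended on the same adjustment. With the lymphocyte mean as a covariate 18 members were lower on HFD in BALB/cJ, against 0 without it, and Timp3 was one of them (−0.61, adjusted p = 0.0128). Without BALB/cJ HFD day 5 animal 3HF202 alone 12 members were called. Without the 2 adipocyte-poor libraries of this group the count was 0, and it was 0 within the low set and within the high set, which leave them out. The covariate was not combined with leaving out those 2 libraries. Shares of all genes called in these alternative fits are not given here, so their counts are not set against a background.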

How the data were processed

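RNA was extracted with RNeasy Plus micro columns, libraries were made with TruSeq Stranded mRNA kits and read as single reads on a HiSeq instrument, per the labels' protocols. STAR 2.5.3a, edgeR and GRCm38 are named in the submitters' processing notes, and the setting for strand in counting is not given in the sources used here. Values were deposited by the authors as log2 CPM with a prior count, 1 table per tissue. From their steps whole reads were recovered for 100% of checked values (tolerance 0.05 reads). Depth was 1.81e+07 to 3.2e+07 reads in liver, 1.99e+07 to 3.34e+07 in soleus and 1.98e+07 to 4.68e+07 in adipose tissue. The column named by each title was taken as that sample, and 8 repeat liver libraries were not used here. Identifiers matched GENCODE M21 names for 12602 of 12611, 13624 of 13637 and 16520 of 16542 genes.

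The main test was limma 3.58.1 (R 4.3.3) with a trend on the log2 CPM of 72 animals per tissue, 18 group means, 54 residual degrees of freedom and Benjamini-Hochberg adjustment over all genes with log2 CPM of 0 or more in 4 animals (12611, 13637 and 16541 genes); calls have an adjusted p under 0.05. Contrasts were HFD minus RC pooled over strains and days, per strain and per day, diet by strain, diet by day, strain pairs on RC, and day 33 minus day 5 per diet. A fold change is on the scale of log2 CPM with the prior count, which understates changes of low genes. The fits were also run on simulated data, whose outcome is not given here. Genes varied independently in that simulation, unlike the matrix genes of these libraries.

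Named genes were, per comparison and tissue, up to 8 called members with the smallest p plus the largest and the smallest fold change, up to 4 for diet by strain and by day, and up to 3 per pathway or marker list. Libraries and replicates named by an animal number after seeing the values are outside that rule. The members and lists were chosen with earlier results of these data known. Alternatives were filters, normalization, another prior count, covariates, a replicate block and leaving out each library. Animals of 1 group are separate mice, but the design text and the labels differ in the days they give, and the labels' day was used. Promoter windows are RefSeq GRCm38.p6, and per-kilobase levels use GENCODE exon lengths. SEs come from the spread between animals, and read numbers cover counting error only.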

Additional observations from a re-analysis of the deposited data

Results flagged for a closer look

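Values were flagged where the lowest or highest of 4 animals stood far from the other 3, which chance gives in about 1 in 20 groups. This met 16 of 162 groups examined. In liver, the mean of the members was 3.76 in 1 BALB/cJ HFD day 33 animal (next 3.86) and 4.54 in 1 DBA/2J RC day 5 animal (next 3.62), and Col12a1 was 0.78 in 1 BALB/cJ HFD day 33 animal (next 1.58), all in log2 CPM. In soleus, the mean of the members was 4.93 in 1 DBA/2J RC day 5 animal (next 6.33) and 4.87 in 1 DBA/2J RC day 33 animal (next 5.39). Col3a1 in soleus was 7.83 in 1 DBA/2J HFD day 33 animal (next 7.71) and 7.93 in 1 DBA/2J RC day 5 animal (next 9.11), and Col4a1 was 7.85 in 1 BALB/cJ RC day 33 animal (next 8.07).

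In adipose tissue the mean of the members was 4.11 in 1 BALB/cJ HFD day 33 animal (next 5.94), which is one of the adipocyte-poor libraries, 7.31 in 1 DBA/2J HFD day 13 animal (next 8.44) and 6.46 in 1 DBA/2J RC day 13 animal (next 8.03). Col8a1 was 3.77 in 1 C57BL/6J RC day 13 animal (next 2.00). Mmp2 was 1.49 in 1 BALB/cJ HFD day 5 animal (next 5.48), 2.32 in 1 BALB/cJ HFD day 33 animal (next 4.87), 4.57 in 1 C57BL/6J HFD day 5 animal (next 5.60) and 5.36 in 1 DBA/2J RC day 13 animal (next 6.99).

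Diet effects that differed between strains or days by limma's own test were also flagged. In liver these were Col12a1 (adjusted p = 0.0218) and P4ha1 (0.00376) by strain. In soleus these were Col3a1 (adjusted p = 0.0120), Col5a1 (0.0370), Col6a3 (0.0370), Col4a1 (0.00114), Col4a2 (0.00274), Col15a1 (0.0163) and Fbn1 (0.0356) by day.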

How the results depend on the processing

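The count models planned as alternatives were not run, because the deposited unit is a log scale. Of 392 counts of called members recomputed under other settings, 332 stayed within 1.5 times the count reported and 60 did not, over 42 comparisons; of 3024 fits that left out 1 library, 2841 stayed within it. Residual correlation was over 0.1 in 12, 7 and 4 of 20 same-numbered pairs in liver, soleus and adipose tissue. Its medians were 0.133, 0.002 and −0.359. No reference from animals with different numbers was computed, so whether animal numbers pair the animals is not settled. The replicate block moved 2 counts, diet on day 13 in liver (1, against 0) and diet by strain in liver (4, against 2). The cause of the changes below was not tested, except that the stricter filter and the subsets hold fewer genes or samples. The fits within the lymphocyte sets also leave out day. Shares of all genes called under these settings are not given here.

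In liver, the animal number range as a covariate gave 6 members for diet in DBA/2J, 1 on day 13, 9 for DBA/2J against C57BL/6J and 2 for time on HFD. Quantile normalization gave 1 on day 5 and 1 on day 13. The stricter filter gave 1 in DBA/2J, 3 in BALB/cJ, 1 on each of days 5, 13 and 33, 0 for diet by strain, and 6, 10 and 9 for the strain pairs DBA/2J against C57BL/6J, BALB/cJ against C57BL/6J and BALB/cJ against DBA/2J. P4ha1 lost its pooled call with the number range (0.24).

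In soleus, the number range gave 4 for diet by day and 0 for time on HFD. The tendon covariate gave 9 pooled, 1 in C57BL/6J, 6 in BALB/cJ, 2 for diet by strain, 3 for diet by day, 10 for DBA/2J against C57BL/6J, 19 for BALB/cJ against DBA/2J and 5 for time on HFD. Without animals 1RC210 and 1RC226 there was 1 on day 5, 4 for diet by day and 11 for time on RC, and without animal 1RC235 as well 1, 4 and 4, with 4 on day 33 and 2 for time on HFD.

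In adipose tissue, the number range gave 3 pooled, 4 in BALB/cJ, 2 on day 33 and 2 for BALB/cJ against C57BL/6J. Quantile normalization gave 1 on day 33. The stricter filter gave 1 in DBA/2J and 5 for BALB/cJ against DBA/2J. The lymphocyte covariate gave 2 pooled, 1 in DBA/2J, 18 in BALB/cJ, 2 on day 33, and 6, 3 and 3 for the strain pairs in the order above. The lymphocyte-high set gave 0 pooled, 1 in C57BL/6J, and 5, 5 and 1 for the pairs. The low set gave 1 in DBA/2J, and 3 and 3 for the first 2 pairs. Without the 2 adipocyte-poor libraries there was 1 in DBA/2J, 1 on day 33 and 4 for BALB/cJ against C57BL/6J. Between DBA/2J and C57BL/6J, 12 single values changed sign. In the high set they were Col14a1 (−0.0226), Hspg2 (−0.0763), Plod1 (−0.19) and Timp3 (−0.18). In the low set they were Col3a1 (−0.13), Col6a3 (−0.0324), Col4a1 (−0.0060), Lamc1 (−0.0926), Hspg2 (−0.13), Bgn (−0.0502), Loxl1 (−0.0690) and Timp3 (−0.0732).

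Leaving out 1 library gave these lowest and highest counts. In liver they were 5 and 7 for diet pooled over strains and days, 2 and 6 in DBA/2J, 2 and 10 in BALB/cJ, 1 and 6 on day 5, 0 and 1 on day 13, 2 and 3 on day 33, 2 and 10 by strain, 10 and 16, 19 and 22, and 17 and 25 for the pairs, and 1 and 3 for time on HFD. In soleus they were 4 and 5 pooled, 0 and 1 in C57BL/6J, 4 and 7 in DBA/2J, 1 and 5 in BALB/cJ, 1 and 13 on day 5, 2 and 2 on day 13, 6 and 14 on day 33, 0 and 2 by strain, 4 and 21 by day, 5 and 7, 13 and 19, and 9 and 13 for the pairs, 13 and 36 for time on RC and 0 and 2 on HFD. In adipose tissue they were 1 and 2 pooled, 0 and 1 in DBA/2J, 0 and 12 in BALB/cJ, 0 and 1 on day 33, 14 and 33, 0 and 2, and 4 and 14 for the pairs, and 0 otherwise. Low reads limit Lama2, Loxl1 and Col12a1 in liver, and no level could be compared between tissues.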
